A study of Rattus norvegicus with 6 samples.

Results

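Lysosomal hydrolases and membrane proteins were followed through 44 named genes, chosen from textbook knowledge of the organelle with earlier results of these data known. These were 10 proteases (the cathepsins Ctsa to Ctsz, legumain and tripeptidyl peptidase 1), 12 glycosidases, 5 sulfatases and 7 lipid enzymes and lipid-binding cofactors. The others were 8 membrane proteins, the transcription factor gene Tfeb and the progranulin gene Grn. A probe set, the group of short oligonucleotides that reports 1 transcript on the array, was taken as a member if its single gene symbol was one of these names or an earlier symbol of the same gene. This gave 56 probe sets for 41 genes, out of 31042 probe sets without array controls. Galns, Sgsh and Npc1 had no probe set carrying their symbol alone and were not analysed here. All 41 genes had at least 1 probe set that passed the filter on low values, among 9539 genes tested.

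The kidneys came from 3 male Dahl salt-sensitive rats (Dahl S, an inbred strain that becomes hypertensive on salt) and 3 male Lewis rats, 1 array for each rat. Every rat of both strains had eaten food with 8% NaCl for 8 weeks, starting at an age of 5 weeks. No group on ordinary food was analysed here, so a strain difference cannot be told apart from a difference in the response to salt. The signals are those of a whole organ: fewer cells of a type and less RNA per cell cannot be told apart.

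Lysosomes are acid compartments in which proteases, glycosidases, sulfatases and lipases break down material delivered by endocytosis and autophagy. Most of these enzymes are tagged with mannose 6-phosphate and carried there by receptors, and TFEB is a transcription factor known to switch on many of their genes together. In the kidney the proximal tubule is rich in lysosomes, which degrade filtered proteins that megalin and cubilin take up, and macrophages are another lysosome-rich cell type.

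The deposited intensities were unscaled, with medians per array from 38.9 to 81.2. They were brought to a common distribution as log2(signal + 16) by quantile normalization. Differences are Dahl S minus Lewis on that scale, and signals on single arrays are the same values turned back to the linear scale less the 16, listed in the order of rats 1, 2 and 3 of a strain. A fold is the difference turned back from log2(signal + 16), so it is a fold of signal + 16 and understates the change of low signals. Arrays of 1 strain correlated at 0.980 to 0.993 over the probe sets tested, and arrays of different strains at 0.958 to 0.970 (correlations across probe sets, not across replicates). Of nephron markers on the array, 16 of 16 proximal tubule, 10 of 11 loop and distal and 5 of 5 podocyte genes had a tested probe set. Over all genes 9539 of 14213 had one, so these counts do not check kidney identity.

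Of the 41 lysosomal genes 8 rose in Dahl S, 2 fell and 31 did not pass an adjusted p of 0.05. Over all genes tested 16.6% were called, 9.03% higher and 7.62% lower, beside 24.4% of the lysosomal genes. The lysosomal genes were brighter (median level 9.71 against 8.19 for all genes, log2 scale), with smaller SEs (median 0.083 against 0.105). Their median absolute difference was 0.150, and that of all genes 0.143. The part of brightness in the share called was not tested. The median difference of the lysosomal genes was 0.03, and that of all genes 0.00449. At an unadjusted p under 0.05 stood 13 of the 41, beside 30.1% of all genes. Counted as probe sets, 9 of 52 rose and 5 fell, where 16.2% of all probe sets were called, 8.5% higher and 7.75% lower. The proteases Ctsz, Ctsd and Ctsl, the glycosidases Galc, Fuca1 and Hexa, the sulfatase Arsb and Grn were the 8 higher genes. The sialidase gene Neu1 and the mannosidase gene Man2b1 were the 2 lower ones. With the arrays scaled to a common median in place of quantile normalization, 3 rose and 3 fell (7.84% and 7.63% of all genes). In the deposited values as given, where the median of all probe sets lay 0.41 higher in Dahl S, 1 rose, Ctsz, and 0 fell by limma (3.83% and 0.227% of all genes), and 3151 of 16135 probe sets had an unadjusted p under 0.05. Without Dahl S array 1, without Dahl S array 2 and without Dahl S array 3, 3, 3 and 5 genes rose (4.85%, 4.96% and 4.6% of all genes). Ctsd, Ctsl, Neu1 and Man2b1 were the 4 genes that passed with any single array left out.

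Signals of cell type markers moved with the strains as well. The sum over 17 macrophage markers was 7361 to 7734 in Dahl S and 5885 to 6066 in Lewis, that over 7 fibroblast markers 6979 to 7063 and 4164 to 4767, and that over 16 proximal tubule markers 77846 to 78902 and 86424 to 89694. The part of cell composition in the differences of the lysosomal genes was not tested.

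**Figure D1:**
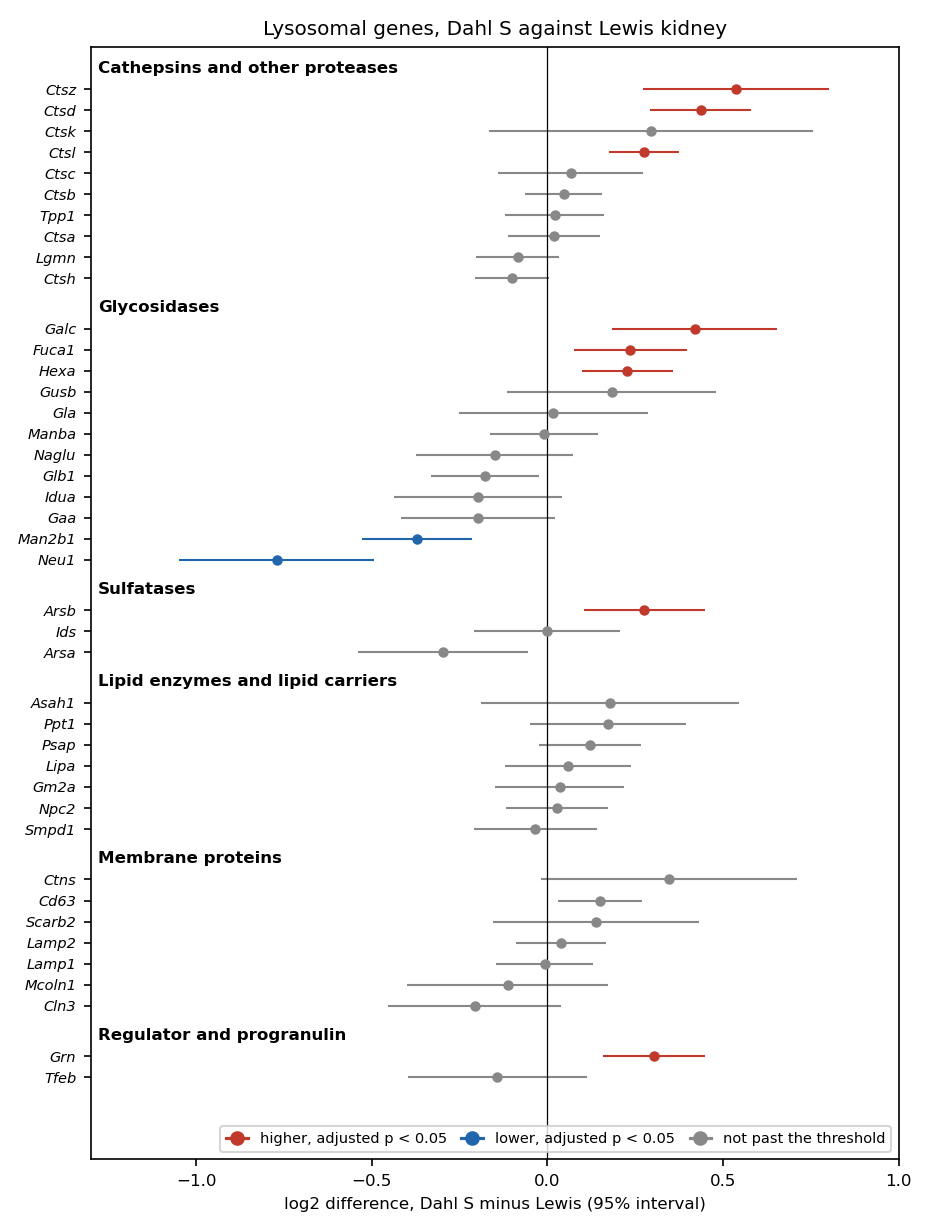
Log2 difference between Dahl S and Lewis for the 41 lysosomal genes by class, as points with 95% intervals of the moderated fit (n = 3 arrays per strain), red for higher, blue for lower and grey for not past the threshold. No lipid or membrane gene passed, where 16.6% of all genes did, and the differences run from -0.77 for Neu1 to 0.54 for Ctsz. Without normalization Man2b1 differed by 0.03, where the median of all probe sets was 0.41.

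Among the proteases 3 of 10 rose, 0 fell and 7 did not pass, where 9.03% of all genes rose and 7.62% fell. Ctsd encodes cathepsin D, an aspartic protease that is a main protein-degrading enzyme of the lysosome. It read 2826, 2597 and 2433 in Lewis, against 3398, 3602 and 3632 in Dahl S. The strains did not overlap, and signal + 16 was 1.35-fold higher in Dahl S (difference 0.44, SE 0.07, adjusted p = 0.00068). With scaling to a common median the difference was 0.30 and still passed.

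Ctsl encodes cathepsin L, a cysteine protease that also processes other lysosomal enzymes. Its brighter probe set read 6669, 6936 and 6756 in Lewis and 8446, 8015 and 8178 in Dahl S. All Dahl S arrays lay above all Lewis arrays (0.27, SE 0.05, adjusted p = 0.0014). A dimmer probe set gave 1905, 2338 and 2245 in Lewis against 3781, 3203 and 3439 in Dahl S. There signal + 16 rose 1.60-fold (0.68, SE 0.08, adjusted p = 0.00015). Scaling to a common median left 0.02 on the bright probe set (adjusted p = 0.90), while the call of the dimmer one did not change.

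Ctsz, the gene of the carboxypeptidase cathepsin Z, read 110, 111 and 121 in Lewis and 206, 158 and 157 in Dahl S. Dahl S array 1 stood above the others of its strain, and the strains did not overlap (0.54, SE 0.12, adjusted p = 0.010). Without Dahl S array 1 the difference was 0.42 and did not pass (adjusted p = 0.064).

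The other 7 proteases did not pass. Ctsb, the abundant cysteine protease cathepsin B, differed by 0.05 (95% interval -0.06 to 0.16). Ctsa, whose product is the carboxypeptidase that shields sialidase and beta-galactosidase in a complex, differed by 0.02 (-0.11 to 0.15). Tpp1, a tripeptidyl peptidase gene, gave 0.02 (-0.12 to 0.16). None of these intervals, which are those of the main setting, reached 0.25. Over the alternatives other than no normalization, Ctsb ran from -0.18 to 0.07, Ctsa from -0.14 to 0.06 and Tpp1 from -0.02 to 0.04. Lgmn, the asparaginyl endopeptidase legumain, differed by -0.09 (-0.20 to 0.03), and over the same alternatives by -0.22 to -0.05. Ctsh, an aminopeptidase gene, differed by -0.10 (SE 0.05, adjusted p = 0.19). Scaled to a common median instead, it fell by 0.32 (adjusted p = 0.021). Ctsc, which activates granule proteases of leukocytes, gave 0.07 on its brighter probe set and 0.19 (adjusted p = 0.083) on another. Ctsk, the collagen-degrading cathepsin of osteoclasts, was read at 116, 49.9 and 103 in Lewis and 102, 110 and 113 in Dahl S. Lewis array 2 lay well below the others, and without it the difference of 0.29 became -0.02.

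**Figure D2:**
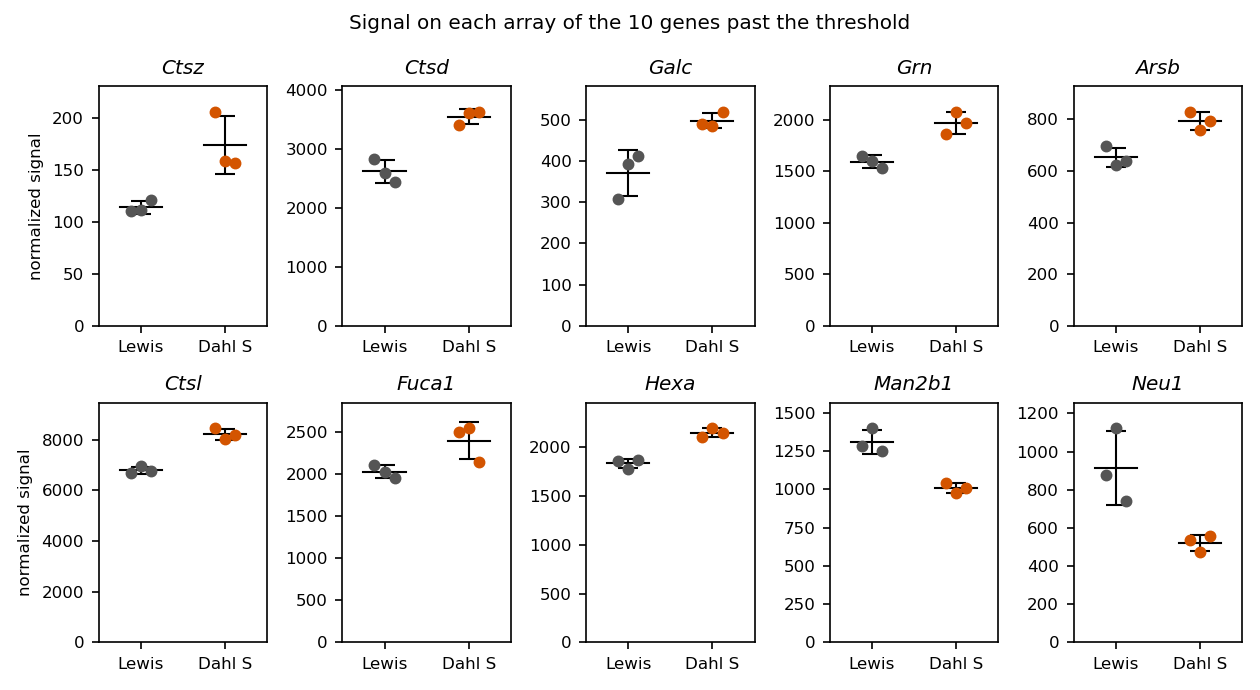
Normalized signal on each of the 3 Lewis (grey) and 3 Dahl S (orange) arrays for the 10 lysosomal genes past the threshold, with the mean as a line and the SD as a bar; each axis starts at 0. The strains do not overlap in any of the 10 panels. These genes were picked by adjusted p, and over all genes tested 35.1% had strain ranges apart. Neu1 has the largest difference of the 10 (-0.77 on the log2 scale). Without normalization Man2b1 was 0.03 higher, where the median of all probe sets was 0.41 higher.

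Glycosidases went both ways: 3 of 12 rose, 2 fell and 7 did not pass (9.03% and 7.62% of all genes rose and fell). Neu1 encodes the lysosomal sialidase, which removes sialic acid from glycoproteins and gangliosides. Its brighter probe set read 879, 1122 and 741 in Lewis and 536, 475 and 556 in Dahl S. Every Dahl S array lay below every Lewis array, and signal + 16 was 1.71-fold lower (-0.77, SE 0.13, adjusted p = 0.0014). A second probe set gave 314, 291 and 255 in Lewis and 115, 92.8 and 109 in Dahl S. There signal + 16 was lower in Dahl S by 2.49-fold (-1.32, SE 0.11, adjusted p = 9.3e-06). Across single arrays left out, the brighter probe set stayed between -0.90 and -0.61 and passed each time. As deposited, without normalization, it differed by -0.34 (adjusted p = 0.47) and the second by -0.90 (adjusted p = 0.062). In RefSeq's gene order (GRCr8) the nearest tested genes beside Neu1 were LOC102549726 (-0.01) and the choline transporter-like gene Slc44a4 (-0.07), of which neither passed. Of the neighbours of the other called genes, the 2 beside Arsb passed, Dmgdh (-0.50, adjusted p = 0.0026) and Lhfpl2 (0.36, adjusted p = 0.018), and no other did. The look at neighbours was chosen after the values were seen.

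Beta-galactosidase, encoded by Glb1, shares a complex with the products of Neu1 and Ctsa. Glb1 read 1850, 1902 and 1645 in Lewis and 1561, 1626 and 1567 in Dahl S. The ranges were apart, but the difference of -0.18 (SE 0.07) did not pass (adjusted p = 0.11). It passed without Lewis array 3 (-0.24, adjusted p = 0.031).

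Man2b1, the lysosomal alpha-mannosidase gene, read 1284, 1399 and 1247 in Lewis and 1040, 972 and 1010 in Dahl S. Signal + 16 was 1.30-fold lower in Dahl S with no overlap (-0.37, SE 0.07, adjusted p = 0.0039). It passed with each array left out (-0.40 to -0.32). Its sign turned only without normalization (0.03, adjusted p = 0.94), where the median of all probe sets was 0.41. Manba, the beta-mannosidase gene, differed by -0.01 (95% interval -0.16 to 0.15).

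Galc encodes galactosylceramidase, which breaks down the myelin lipid galactosylceramide. It read 308, 393 and 413 in Lewis and 490, 485 and 520 in Dahl S. Lewis array 1 was the lowest, and the strains were apart (0.42, SE 0.11, adjusted p = 0.020). It no longer passed without Dahl S array 1 (0.43, adjusted p = 0.066), Dahl S array 2 (0.44, adjusted p = 0.058) or Dahl S array 3 (0.39, adjusted p = 0.092), and with no filter on low values (0.42, adjusted p = 0.051).

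Hexa encodes the alpha subunit of beta-hexosaminidase A, which degrades the ganglioside GM2. Its signal was 1855, 1777 and 1866 in Lewis and 2101, 2194 and 2147 in Dahl S. Fuca1, the alpha-fucosidase gene, read 2102, 2021 and 1950 in Lewis and 2499, 2541 and 2139 in Dahl S. Dahl S array 3 came close to Lewis array 1 for Fuca1. Hexa rose by 0.23 (SE 0.06, adjusted p = 0.022) and Fuca1 by 0.24 (SE 0.07, adjusted p = 0.049). For Hexa the call was lost without Lewis array 2 (0.21, adjusted p = 0.058), Dahl S array 1 (0.24, adjusted p = 0.066), Dahl S array 2 (0.21, adjusted p = 0.10) or Dahl S array 3 (0.23, adjusted p = 0.11). For Fuca1 it was lost without Lewis array 2 (0.23, adjusted p = 0.10), Lewis array 3 (0.21, adjusted p = 0.11), Dahl S array 1 (0.20, adjusted p = 0.19) or Dahl S array 2 (0.19, adjusted p = 0.20). Both calls were lost with scaling to a common median, where each differed by 0.15.

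The remaining glycosidases did not pass. Gla, the alpha-galactosidase deficient in Fabry disease, gave 0.02 on each of its 2 probe sets. Gaa, the acid glucosidase that degrades glycogen, gave -0.20 and -0.15 on its 2 probe sets. Gusb, beta-glucuronidase, differed by 0.18 (95% interval -0.12 to 0.48). Idua and Naglu, which act on glycosaminoglycans, differed by -0.20 (-0.44 to 0.04) and -0.15 (-0.37 to 0.07).

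The promoters of the called genes with the largest differences are shown because TFEB is known to bind a palindromic motif in promoters of lysosomal genes. They are RefSeq windows of the GRCr8 build, 250 bases before and 50 after an annotated transcript start, each written 5′ to 3′ on the gene's own strand. Capitals mark every match to the E-box CACGTG or to TCACGTGA, the core of the TFEB motif, which contains it. As palindromes both read the same on either strand. Ctsz lies at chr3:183653798-183654097, Ctsd at chr1:206968772-206969071 and Galc at chr6:123245510-123245809, and among the genes that fell Neu1 lies at chr20:3906334-3906633 and Man2b1 at chr19:39979197-39979496, all on the minus strand.
Ctsz: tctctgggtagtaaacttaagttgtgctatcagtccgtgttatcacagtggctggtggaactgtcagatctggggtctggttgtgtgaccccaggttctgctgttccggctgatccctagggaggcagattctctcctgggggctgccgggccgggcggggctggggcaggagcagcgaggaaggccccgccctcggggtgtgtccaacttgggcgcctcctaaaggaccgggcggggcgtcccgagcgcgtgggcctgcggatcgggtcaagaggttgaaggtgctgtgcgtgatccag
Ctsd: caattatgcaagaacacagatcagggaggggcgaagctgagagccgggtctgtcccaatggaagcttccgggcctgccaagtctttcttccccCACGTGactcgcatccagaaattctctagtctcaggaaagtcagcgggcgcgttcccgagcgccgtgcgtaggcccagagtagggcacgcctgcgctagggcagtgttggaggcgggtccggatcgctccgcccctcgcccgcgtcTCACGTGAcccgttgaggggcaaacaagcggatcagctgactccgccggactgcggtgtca
Galc: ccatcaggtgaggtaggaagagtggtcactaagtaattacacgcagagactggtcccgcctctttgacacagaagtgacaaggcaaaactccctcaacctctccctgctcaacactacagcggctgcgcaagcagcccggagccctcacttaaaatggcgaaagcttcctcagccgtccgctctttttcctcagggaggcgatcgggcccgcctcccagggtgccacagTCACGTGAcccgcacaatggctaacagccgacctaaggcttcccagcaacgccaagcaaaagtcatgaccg
Neu1: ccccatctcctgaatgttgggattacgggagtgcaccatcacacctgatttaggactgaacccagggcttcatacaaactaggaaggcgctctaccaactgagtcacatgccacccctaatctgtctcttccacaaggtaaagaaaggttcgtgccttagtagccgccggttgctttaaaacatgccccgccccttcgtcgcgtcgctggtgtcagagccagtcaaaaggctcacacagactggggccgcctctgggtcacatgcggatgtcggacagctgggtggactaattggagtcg
Man2b1: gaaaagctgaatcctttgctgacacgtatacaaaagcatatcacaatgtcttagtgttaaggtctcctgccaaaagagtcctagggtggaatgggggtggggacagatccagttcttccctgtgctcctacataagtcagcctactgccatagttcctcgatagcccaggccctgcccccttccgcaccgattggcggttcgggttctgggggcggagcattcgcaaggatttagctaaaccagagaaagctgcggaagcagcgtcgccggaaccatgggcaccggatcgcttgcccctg

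Galc held TCACGTGA, with its CACGTG starting 20 bases before the transcript start. Ctsd held CACGTG at 2 places, starting 157 and 10 bases before the start, of which 1 lay within TCACGTGA. The windows of Ctsz, Neu1 and Man2b1 held neither motif. Of 37 lysosomal genes with a window, Galns, Sgsh and Npc1 among them, 10 (27.0%) held CACGTG and 5 (13.5%) held TCACGTGA. Among 11735 genes on the array with a window, 9.35% and 1.49% held them, and among all 27457 genes with one, 7.08% and 0.896%. The other genes with TCACGTGA were Lamp1, Mcoln1 and Cln3, which did not pass in the expression data. Among the genes that did not pass, 7 of 26 (26.9%) held CACGTG, beside 2 of 6 that rose and 0 of 2 that fell. Asah1, Ctsb, Hexa, Arsb, Psap, Ppt1 and Arsa were not searched. A match is a run of letters and not a measured site.

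Of 5 sulfatases 3 were measured. Ids, the iduronate sulfatase deficient in Hunter syndrome, differed by -0.00215 (95% interval -0.21 to 0.21). Arsb, which removes sulfate from dermatan sulfate, had probe sets that opposed each other. The brighter one read 695, 624 and 639 in Lewis and 830, 757 and 793 in Dahl S. The dimmer one read 578, 591 and 489 in Lewis and 358, 356 and 352 in Dahl S. Both separated the strains completely, the first upwards (0.28, SE 0.08, adjusted p = 0.032) and the second downwards (-0.61, SE 0.09, adjusted p = 0.00067). The mean of the 2 gave -0.17 (adjusted p = 0.16). The direction of Arsb RNA was therefore not settled by the array, and without this gene 7 lysosomal genes rose. The upward call depended on every array but Lewis array 1, since it did not pass without Lewis array 2 (0.24, adjusted p = 0.091), Lewis array 3 (0.26, adjusted p = 0.064), Dahl S array 1 (0.24, adjusted p = 0.15), Dahl S array 2 (0.31, adjusted p = 0.065) or Dahl S array 3 (0.28, adjusted p = 0.12).

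Arsa encodes arylsulfatase A, which removes sulfate from the lipid sulfatide. Its brighter probe set read 522, 512 and 439 in Lewis and 439, 420 and 335 in Dahl S, and did not pass (-0.30, SE 0.11, adjusted p = 0.093). Its dimmer probe set read 401, 338 and 300 in Lewis and 230, 229 and 247 in Dahl S. On it signal + 16 was lower in Dahl S by 1.43-fold (-0.52, SE 0.11, adjusted p = 0.0064). The mean of the probe sets passed as well (-0.41, adjusted p = 0.012).

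**Figure D3:**
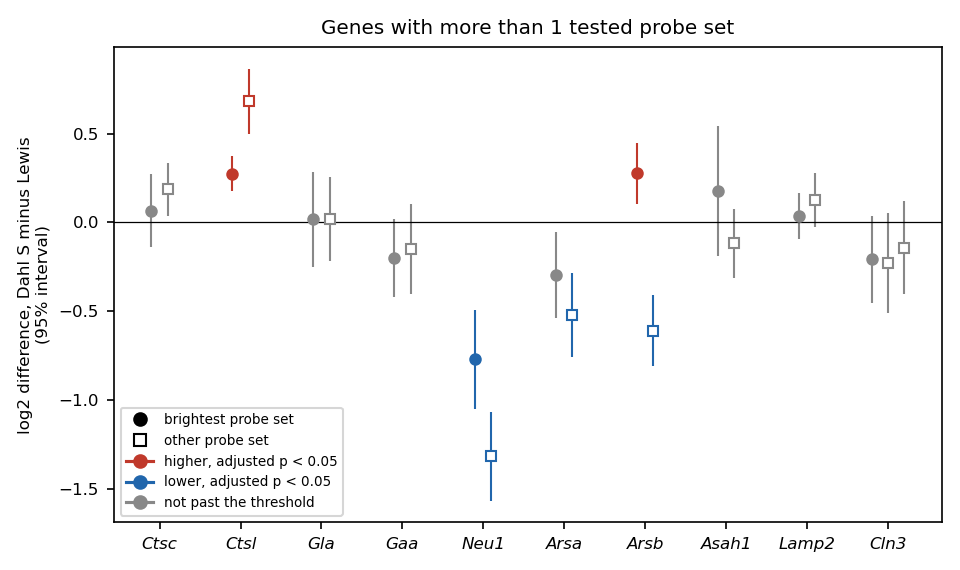
Log2 difference and 95% interval for each tested probe set of the 10 lysosomal genes with more than 1, filled circles for the brightest probe set and open squares for the others. Probe sets of Arsb were called in opposite directions, those of Ctsl and Neu1 were called in the same direction with different sizes, and 1 of 2 was called for Arsa.

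No lipid gene passed (0 of 7), where 16.6% of all genes did, and so small a list cannot tell these shares apart. Lipa, the acid lipase that frees cholesterol from its esters, differed by 0.06 (95% interval -0.12 to 0.24). Npc2, which hands that cholesterol on, differed by 0.03 (-0.12 to 0.17), and Smpd1, acid sphingomyelinase, by -0.03 (-0.21 to 0.14). Psap, the precursor of the saposins that help enzymes reach sphingolipids, gave 0.12 (-0.03 to 0.27). Gm2a, the GM2 activator that works with the product of Hexa, differed by 0.03 (-0.15 to 0.22). None of these intervals reached 0.5 either way. Ppt1, a palmitoyl thioesterase gene, gave 0.17 (-0.05 to 0.39). Asah1, acid ceramidase, read 360, 452 and 677 in Lewis and 552, 516 and 569 in Dahl S. The Lewis arrays enclosed all Dahl S arrays, with a difference of 0.18 (SE 0.17), and without Lewis array 3 it was 0.42 (adjusted p = 0.025). A second probe set of Asah1 gave -0.12 (adjusted p = 0.41).

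Membrane proteins did not pass either (0 of 7, beside 16.6% of all genes), in a list as small. Lamp1 and Lamp2 encode the most abundant proteins of the lysosomal membrane. Lamp1 read 4467, 3882 and 3863 in Lewis and 4063, 3975 and 4082 in Dahl S, a difference of -0.01 (95% interval -0.15 to 0.13). Lamp2 read 4188, 3656 and 3899 in Lewis and 4041, 3990 and 4007 in Dahl S, a difference of 0.04 (-0.09 to 0.17). In the main setting the intervals of both stayed within 0.25 either way, and the Lewis arrays enclosed the Dahl S arrays. Over the alternatives other than no normalization, Lamp1 ran from -0.16 to 0.06 and Lamp2 from -0.11 to 0.09. The median of the 7 membrane genes, 0.04 in the main setting, was -0.10 with scaling to a common median. Another Lamp2 probe set gave 0.13 (adjusted p = 0.25).

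Cd63, a tetraspanin of late endosomes, read 5547, 6230 and 5923 in Lewis and 6802, 6460 and 6364 in Dahl S. The ranges were apart, with a difference of 0.15 (SE 0.06, adjusted p = 0.088) that passed without Lewis array 2 (0.19, adjusted p = 0.047). With single arrays left out the difference of Cd63 ran from 0.10 to 0.19. Over all alternatives other than no normalization it ran from -0.08 to 0.19, so its sign was not the same in all of them. Ctns, the cystine exporter whose loss causes cystinosis, read 125, 141 and 224 in Lewis and 207, 221 and 190 in Dahl S. Lewis array 3 lay above all Dahl S arrays and the other Lewis arrays below them, and without Lewis array 3 the difference of 0.35 (adjusted p = 0.19) became 0.58 (adjusted p = 0.0078). Scarb2, which carries glucocerebrosidase to the lysosome, differed by 0.14 (95% interval -0.16 to 0.43). Mcoln1, a calcium channel of the lysosome, differed by -0.11 (-0.40 to 0.17). Cln3, mutated in juvenile Batten disease, gave -0.21, -0.23 and -0.14 on its 3 probe sets, of which none passed.

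Grn encodes progranulin, a secreted protein that is taken up into lysosomes and cut there into granulins. It read 1654, 1599 and 1536 in Lewis and 1868, 2081 and 1975 in Dahl S. The strains were apart (0.30, SE 0.07, adjusted p = 0.0082), and without Dahl S array 2 the difference was 0.27 (adjusted p = 0.058). With scaling to a common median it was 0.23 (adjusted p = 0.085). Tfeb read 281, 285 and 220 in Lewis and 236, 258 and 211 in Dahl S, which overlapped (-0.14, SE 0.12, adjusted p = 0.45).

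Strain ranges were apart for 14 of the 41 genes (34.1%), a share near the 35.1% of all genes. No lysosomal gene reached 2-fold on the probe set that stands for it, as 1.24% of all genes did. Of the 31 genes that did not pass in the main setting, 27 had a 95% interval within 0.5 either way and 13 within 0.25. An unadjusted p under 0.05 was reached by 3 of them. The intervals do not cover the choice of scaling. The median SD within a strain was 0.10 for the lysosomal genes and 0.12 for all genes, on the log2 scale. Lewis array 1 was the array farthest from the others of its strain for 15 of 41 genes (36.6%), and for 32.9% of all genes. In the RefSeq annotation Ctsd overlaps Tnni2, Ctsz overlaps Nelfcd, Galc overlaps Gpr65, Hexa overlaps Tmem202, and Neu1 and Arsb overlap uncharacterized loci, so which gene a probe set reads was not checked there. Tnni2 (-0.18) and Nelfcd (0.17) were tested on probe sets of their own and did not pass.

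**Figure D4:**
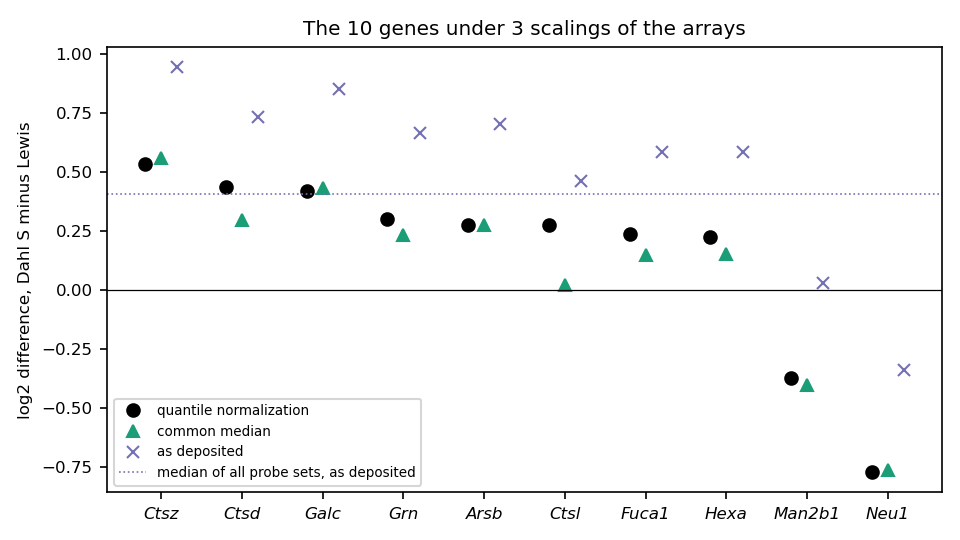
Log2 difference of the 10 called genes under quantile normalization (circles), scaling to a common median (triangles) and as deposited (crosses), with the median of all probe sets as deposited as a dotted line at 0.41. Ctsl moved from 0.27 to 0.02 with scaling to a common median, and as deposited Man2b1 turned to 0.03 while Neu1 stayed below 0.

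Genes that work with the lysosome were described from lists written for the purpose, with earlier results of these data known. Over all genes tested 9.03% rose and 7.62% fell. Among 21 tested genes outside the 41, most of them lysosomal hydrolases, 1 rose, 3 fell and 17 did not pass (19.0% called, median 0.04). Scpep1, a serine carboxypeptidase related to Ctsa, fell by 0.80 on the log2 scale, 1.74-fold in signal + 16 (SE 0.07, adjusted p = 1.4e-05). Hyal2, a hyaluronidase gene, fell by 0.34 on the log2 scale (adjusted p = 0.026) and Acp2, lysosomal acid phosphatase, by 0.27 (adjusted p = 0.047). Ctss, the cathepsin of antigen-presenting cells, rose by 0.47 (SE 0.08, adjusted p = 0.0021). Of 16 further membrane genes 2 rose and 3 fell (median -0.05). Laptm5, a lysosomal protein of leukocytes, rose by 0.64 (SE 0.13, adjusted p = 0.0048), and a second probe set gave 0.96 (adjusted p = 0.018). Cd68, the macrophage relative of Lamp1, rose by 0.61 (adjusted p = 0.0030). Mcoln2, a channel related to Mcoln1, fell by 0.64 (SE 0.12, adjusted p = 0.0025) and the transporter gene Abca2 by 0.43 (adjusted p = 0.019).

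The V-ATPase is the proton pump that acidifies the lysosome. Of 21 subunit genes 2 rose and 0 fell (9.52% called; median 0.01). The riser with the smaller adjusted p was Atp6v1g3, a kidney-restricted subunit of proton-secreting intercalated cells, which gave 0.43 (SE 0.06, adjusted p = 4.0e-04) and 0.41 (adjusted p = 0.0064) on its 2 probe sets. Atp6v1c1 rose by 0.26 (adjusted p = 0.028). Among 27 genes of sorting to the lysosome 1 rose and 2 fell (median -0.02). Igf2r, the large mannose 6-phosphate receptor, fell by 0.35 (SE 0.07, adjusted p = 0.0030), and by 0.52 (adjusted p = 0.0018) on its other probe set. Gga3, an adaptor for that receptor, fell by 0.54 (adjusted p = 0.012), while its other probe set differed by -0.30 (adjusted p = 0.17). Ap3b1, an adaptor subunit, rose by 0.30 (adjusted p = 0.018).

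Of 20 genes of the TFEB family and of mTORC1, the kinase complex that holds TFEB in the cytosol, 0 rose and 1 fell. That gene was Rragd, a GTPase that brings mTORC1 to the lysosome (-0.73, SE 0.10, adjusted p = 3.1e-04). Of 18 autophagy genes 0 rose and 1 fell, Wipi2, which acts in autophagosome formation (-0.93, SE 0.10, adjusted p = 4.2e-05). Among 10 genes of proximal tubule endocytosis, megalin and cubilin included, 0 passed by limma, beside 16.6% of all genes. An unadjusted p under 0.05 was reached by 0 of them (30.1% of all genes), and the median was 0.02. With scaling to a common median 1 of them fell (7.63% of all genes). Of 4 measured protease inhibitor genes 2 rose and 1 fell. Slpi, an inhibitor of serine proteases, rose by 2.36 on the log2 scale, 5.12-fold in signal + 16 (SE 0.12, adjusted p = 6.0e-08). Cst3, cystatin C, which inhibits cysteine cathepsins, rose by 0.22 (SE 0.07, adjusted p = 0.044). Serpinb1a, an inhibitor of neutrophil proteases, fell by 0.40 (adjusted p = 0.0024), and its other probe set differed by -0.37 (adjusted p = 0.22).

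The cell type markers behind those sums were read gene by gene, beside 9.03% of all genes higher and 7.62% lower. Of 17 tested macrophage markers 11 rose, 0 fell and 6 did not pass (64.7% called; median 0.39). Fcgr1a, an antibody receptor of myeloid cells, rose by 0.81 (SE 0.12, adjusted p = 4.6e-04). Ptprc, the pan-leukocyte CD45 gene, rose by 0.97, Aif1 by 0.83 and the leukocyte actin-bundling gene Lcp1 by 0.56. Cd68 is in this list as well as among the membrane genes. Other lists share genes too, and megalin and cubilin count both among the endocytosis genes and among the proximal tubule markers. Of 16 proximal tubule markers 0 rose and 8 fell (median -0.17). The largest falls among those named by adjusted p were those of the lactate transporter gene Slc5a12 (-0.84) and the dicarboxylate transporter gene Slc13a3 (-0.80), with Slc22a6 (-0.69) and Pck1 (-0.49) behind them. With scaling to a common median 13 of the 16 fell (7.63% of all genes). Without normalization 0 did (0.227% of all genes), and their median was 0.06, beside 0.41 for all genes.

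Fibroblast markers rose in 6 of 7 cases (median 0.62), where 9.03% of all genes rose and 7.62% fell. Dcn rose by 0.86, Col3a1 by 0.74, Col1a2 by 0.69 and Pdgfra by 0.45. Erythrocyte markers rose in 3 of 4 cases (summed signals of 6130 to 6580 in Dahl S and 4425 to 5445 in Lewis), among them Hba-a3 (0.57), Alas2 (0.56) and Hbb (0.34). Podocyte markers fell in 3 of 5 cases (sums of 1637 to 1705 and 2146 to 2211), which were Podxl (-0.79), Ptpro (-0.41) and Wt1 (-0.36). Of 6 endothelial markers 1 rose, Vwf (0.46), and 2 fell, Pecam1 (-0.40) and Emcn (-0.36), with sums of 2547 to 2740 and 2763 to 3056. Of 10 loop and distal markers 0 rose and 2 fell, Aqp3 (-0.29) and Scnn1a (-0.52), with sums of 24790 to 25249 and 25700 to 27168. No marker of these lists was at 0 on any array.

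**Figure D5:**
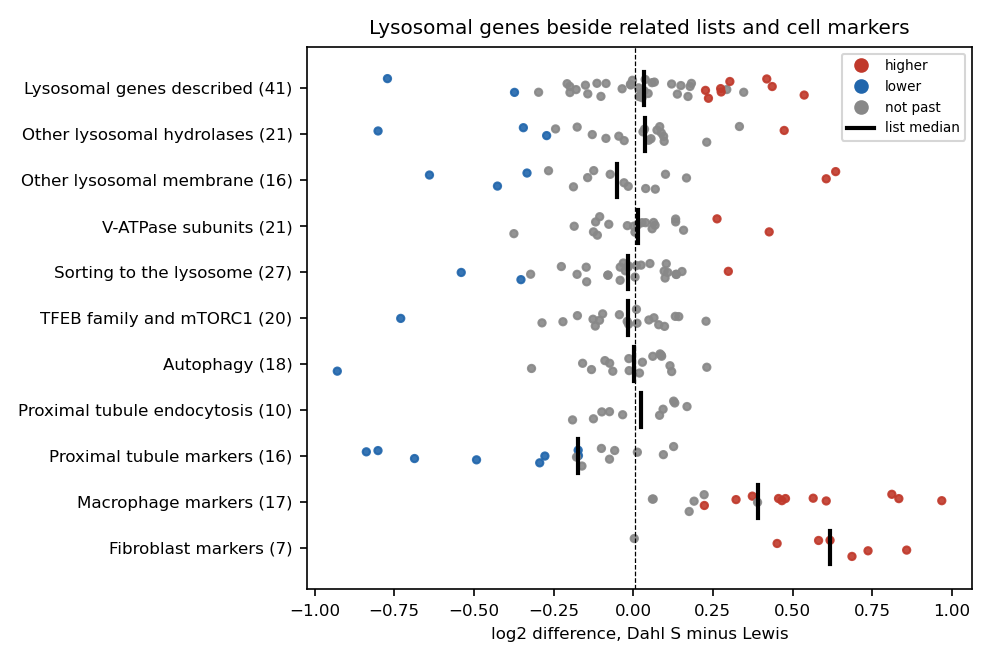
Log2 difference of each tested gene in the lysosomal group and in related lists and marker lists (number tested in brackets), with list medians as black bars and the median of all genes as a dashed line. The median lies at 0.03 for the lysosomal genes, 0.39 for macrophage markers, 0.62 for fibroblast markers and -0.17 for proximal tubule markers. Without normalization it was 0.06 for proximal tubule markers, beside 0.41 for all genes.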

How the data were processed

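Kidney RNA of 6 rats was measured on 1 array each, and groups and replicate numbers came from the sample titles. Per the labels' design text, the authors computed linear signal intensities with GeneChip Operating Software version 1.4 and deposited 1 intensity for each of 31099 probe sets. Its scaling target and detection calls were not used here.

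With 57 array controls set aside, the platform annotation gave a single gene symbol to 20826 probe sets, several to 436 and none to 9780. Symbols were updated by gene identifier through RefSeq's GRCr8 table (20758 matched), and probe sets with several symbols named no gene. The pseudocount of 16 is the rounded lower quartile of all values. Testing required a normalized value above the overall median on 3 or more of the 6 arrays, which left 15797 probe sets. Quantile normalization removes a shift shared by most genes. Strains were compared with limma 3.58.1 under R 4.3.3, using moderated two-sided tests with the variance trend on and Benjamini-Hochberg adjustment over every probe set tested. SEs, 95% intervals and adjusted p-values are limma's, with n = 3 rats per strain, and the intervals are not adjusted. Where a gene had several tested probe sets, the brightest on average stood for it. For 1 gene alone, an exact permutation of 3 against 3 rats gives no two-sided p below 0.1. The number of arrays limits the precision, and no probe was left out for sequence that may differ between the strains.

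Named genes were all members, and from each other list up to 4 called genes in order of adjusted p. The promoters shown belong to called members with the largest differences in each direction that the RefSeq table holds. Members and lists were chosen with earlier results of these data known.

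The fit was tested on simulated data of the same design with known changes. Where the planted difference was 0.5 on the log2 scale, 44.8% of 67 altered probe sets were recovered, and 64 had passed the filter. For a difference of 1 the share was 89.6% of 67 (63 tested), and for 2 it was 92.4% of 66 (61 tested). Probe sets that the filter removed count as missed in these shares. Over 15669 probe sets tested, 5 of 156 calls were false. The data gave many more calls, 2567 of 15797, so the shares are not detection rates for the strain comparison. Alternatives varied the scaling, the pseudocount, the filter, the probe set rule, the variance trend and the replicate block, and left out each array.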

Additional observations from a re-analysis of the deposited data

How the results depend on the processing

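In all 614 gene values were recomputed under 15 alternatives, and 569 kept their side of the threshold with no called direction turned. Of the rest 36 lost a call with the sign kept, 7 gained one, and 2 lost a call and changed sign. These 2 were Man2b1 without normalization and Arsb as the mean of its probe sets (-0.17). Neither passed in the opposite direction. Without normalization Man2b1 differed by 0.032, beside a median of 0.41 over all probe sets. Of 457 values that passed under neither setting 41 changed sign, and these have no called direction. The 8 genes higher and 2 lower became 1 and 0 without normalization, and 3 higher with scaling to a common median. Without a variance trend 5 were higher (7.88% of all genes). The cause was not tested. With a single array left out, 3 to 8 were higher and 2 to 3 lower (4.6% to 9.58% and 4.39% to 8.3% of all genes). Probe sets called, 2567 in the main setting, fell to 713 without normalization and lay between 1373 and 2678 with an array left out. An array left out also takes away a degree of freedom. The other pseudocounts (0 and 64) and the stricter filter gave 8 higher and 2 lower (8.56% to 9.12% and 7.57% to 7.63% of all genes). With no filter 6 were higher and 2 lower (4.81% and 3.77% of all genes). Galc (adjusted p = 0.051) and Fuca1 (adjusted p = 0.115) lost their calls there. With probe sets averaged per gene 7 were higher and 3 lower (9.03% and 8.92% of all genes). Leaving out Arsb for its opposing probe sets, chosen after seeing the data, gave 7 and 2.

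Both strains carry replicate numbers 1 to 3, but nothing in the labels ties rats of the same number together. Deviations from the strain means correlated at -0.05, -0.10 and 0.11 for same-numbered rats, and at -0.07 to 0.13 for rats of different numbers. With a replicate block, 8 genes were higher and 3 lower (8.6% and 7.51% of all genes), and 2494 probe sets were called. The gene gained was Arsa (-0.30, adjusted p = 0.048).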
